A study of Mus musculus with 22 samples.

Results

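Mchr1 encodes the receptor for melanin-concentrating hormone (MCH), and its row was 1 of the 23997 genes in a table of mouse colon expression. The gene was chosen by its measured values in these libraries, both its levels by group and its correlation with other genes. Its levels, group differences and correlations are therefore given as descriptions, with no test. MCH is a cyclic neuropeptide made mainly in the lateral hypothalamus, where it promotes feeding, and it is cut from the precursor Pmch. Its receptor is a G protein-coupled receptor that signals through Gi/o and Gq proteins and that in neurons sits on the primary cilium. In the gut, MCH and its receptor have been studied in experimental and human intestinal inflammation.

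The colons came from wild type BALB/c mice that were 5 weeks old when the drinking regimen of 3 weeks began, per the sample labels, while the text on the design gives 8 weeks of age at DSS. Control mice (CON, 8 libraries) drank distilled water, and mice of the DSS group (5 libraries) drank distilled water that held 5% of dextran sulfate sodium, a chemical that injures the colonic epithelium, in the week before they were killed. The HMLS (4 libraries) and TM (5 libraries) groups drank one of 2 samples of deep sea water, with 5% DSS added in that same last week, so all 3 of these groups carried colitis and none drank sea water alone. The labels do not say what HMLS and TM stand for, nor the animals' sex, nor that each library is a separate mouse, so p-values measure only the spread between these libraries. Levels are FPKM, fragments per kilobase of transcript and per mapped fragment of the library, which can be compared between genes. Differences are of log2(FPKM + 1), a scale that understates the change of a gene near 1 FPKM.

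Libraries held between 48089882 and 68733410 reads. Between 82.3% and 88.9% of reads mapped in DSS and between 89.9% and 91.9% in CON, so these groups did not overlap. All 9 colonocyte markers examined, among them Car1 and Slc26a3, were detected, with summed levels from 4838 to 11045 FPKM over all libraries. Over the 22 libraries, the Mchr1 level had r = -0.085 with the percent mapped and 0.024 with mapped reads. With the number of genes at 1 FPKM or more, r was -0.330. After group means were subtracted these values were 0.102, -0.121 and 0.138, and within CON -0.170, -0.437 and 0.039.

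In the GRCm38 build Mchr1 (ENSMUSG00000050164.11) occupies chr15:81235499-81238964 on the + strand and overlaps 0 other annotated genes. It has 2 exons, and its transcript of 2189 bases holds 1059 coding bases without the stop codon. Each exon holds both coding and untranslated sequence. The 250 bases before its start site are shown because they hold a CACGTG E-box, the element that the clock factors CLOCK and BMAL1 bind, and because Per1, a clock gene described below, has one of its promoters with the same letters. The sequences are those of RefSeq on GRCm38.p6, 5′ to 3′, with the E-box in capitals.

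Mchr1, chr15:81235249-81235498, + strand: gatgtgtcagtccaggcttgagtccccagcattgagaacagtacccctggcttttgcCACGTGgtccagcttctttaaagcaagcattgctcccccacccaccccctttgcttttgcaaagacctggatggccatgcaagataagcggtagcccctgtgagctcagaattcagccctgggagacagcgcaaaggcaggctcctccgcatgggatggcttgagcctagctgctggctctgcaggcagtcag

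Per1, chr11:69098699-69098948, + strand: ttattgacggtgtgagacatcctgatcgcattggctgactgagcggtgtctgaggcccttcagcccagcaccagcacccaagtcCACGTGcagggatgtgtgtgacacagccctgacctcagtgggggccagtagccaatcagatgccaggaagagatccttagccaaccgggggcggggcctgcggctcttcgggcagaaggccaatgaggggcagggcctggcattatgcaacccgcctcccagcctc

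The E-box lies 193 to 188 bases before the start of Mchr1 and 166 to 161 bases before this start of Per1. The second Per1 promoter in the reference lacks it. The 6 letters, which read the same on both strands, occur in 6.02% of 32851 mouse promoter windows of this length. Of the 16 named correlates of Mchr1 that had a window, only Per1 held the letters. The D-boxes TTATGTAA and TTACGTAA, the palindromic glucocorticoid response element and a heat shock element were searched on both strands in these windows too. They occur in 0.819%, 0.113%, 0.00913% and 0.466% of windows, and neither Mchr1 nor a named correlate had a match. A match is a description of letters, and its absence says nothing about any factor.

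Mchr1 was low in control colon and higher in nearly all colitis libraries. In the 8 CON libraries its level ran from 0.236 to 0.747 FPKM with a median of 0.432. In DSS it was 3.44, 1.79, 4.47, 0.827 and 2.39 FPKM in replicates 1, 2, 5, 6 and 7. All 5 DSS libraries lay above every CON library, although replicate 6 exceeded the highest of them only slightly. In HMLS the level was 4.88, 1.85, 0.0700 and 2.55 FPKM in replicates 3, 6, 7 and 8. HMLS replicate 7 was the lowest of all 22 libraries and the other 3 lay above every CON library. In TM the level was 3.41, 4.96, 3.25, 4.84 and 4.81 FPKM in replicates 3, 5, 6, 7 and 8. Relative to its mean TM was the most even group, with an SD of 19.9% of the mean against 40.2% in CON. In FPKM its SD was larger than that of CON (0.847 against 0.194). Every TM library lay above every CON library. The gene was above 0 in all 22 libraries. In whole tissue, fewer cells of a type and less RNA per cell cannot be told apart.

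**Figure D1:**
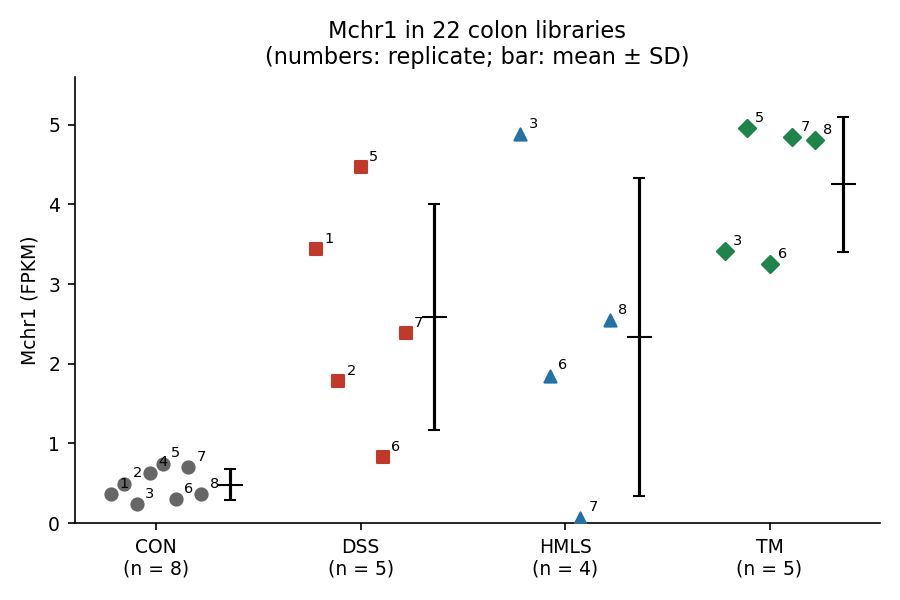
Level of Mchr1 (FPKM, linear axis from 0) in each of 22 libraries by group, with replicate numbers beside the points and the group mean ± SD as a bar. The 8 CON points lie below 0.8 FPKM, all TM points lie above 3, and HMLS replicate 7 lies at 0.0700 FPKM.

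The group means were 0.482 ± 0.194 FPKM in CON (SD, n = 8), 2.34 ± 1.99 in HMLS (n = 4), 2.58 ± 1.42 in DSS (n = 5) and 4.26 ± 0.847 in TM (n = 5). The coefficient of variation was 40.2% in CON, 19.9% in TM, 54.9% in DSS and 85.2% in HMLS. Among genes above 0, the mean level of Mchr1 stood at the 31.0th percentile in CON and at the 49.8th in TM, counted from the lowest upward. The mean in DSS was 5.36 times that in CON, a log2 difference of 1.19 ± 0.282 (SE). The mean in TM was 8.83 times that in CON, a log2 difference of 1.82 ± 0.127. Complete separation upward from CON was seen in 4.13% of 13483 genes in DSS and in 4.66% of 13485 genes in TM. These values chose the gene, so nothing is read from its place among them.

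HMLS and DSS, neighbours in the order of the means, did not differ beyond their spread. The log2 difference of HMLS minus DSS was -0.24 ± 0.584, and without HMLS replicate 7 it was 0.22, in the opposite direction. Without HMLS replicate 3, the highest of its group, it was -0.60. HMLS minus CON was 0.94 ± 0.520. It was 1.41 without replicate 7, when the HMLS mean was 3.09 FPKM, and 0.59 without replicate 3, when the mean was 1.49 FPKM. TM minus DSS was 0.64 ± 0.295, with 3 of 5 TM libraries above every DSS library and the other 2 within the DSS range. For replicates 5, 6 and 7, the numbers that TM and DSS share, Mchr1 was higher in the TM library than in the DSS library each time. With the replicate number as a block, in a fit of the 3 colitis groups, the difference was 0.50. The labels do not say that equal numbers mark matched libraries, so these are not known to be pairs. HMLS minus TM was -0.88 ± 0.527, -0.41 without HMLS replicate 7 and -1.23 without replicate 3, with 3 of 4 HMLS libraries below every TM library. TM, HMLS and DSS are each set against the same 8 CON libraries.

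HMLS replicate 7 and DSS replicate 6, the colitis libraries with the least Mchr1, resembled the others in some genes and CON in others. Per1 was 4.10 FPKM in HMLS replicate 7 and 9.35 in DSS replicate 6, against 2.27 to 6.52 in CON and 12.5 to 57.8 in the other 12 colitis libraries. Srsf7, a splicing factor, was 48.3 and 36.3 FPKM in the same libraries, against 30.4 to 43.6 in CON and 15.5 to 28.2 in the other 12. In these 2 genes neither library reached the range of the other colitis libraries. The stem cell receptor gene Lgr5 was 0.383 and 0.300 FPKM, against 1.42 to 2.96 in CON and 0.0269 to 0.456 in the other 12. The antimicrobial lectin Reg3b was 5787 and 10982 FPKM, above the 422 to 1764 of CON and inside the 4362 to 25761 of the other 12. Both libraries lay within the range of the other colitis libraries for Lgr5 and Reg3b. Ascl2, another stem cell gene, was 0.455 and 1.37 FPKM, below the 2.43 to 4.88 of CON and above the 0 to 0.253 of the other 12. Lcn2, a neutrophil and epithelial iron-trapping protein, was 0.180 FPKM in HMLS replicate 7, below all CON libraries, and 2.12 in DSS replicate 6. Of the 628 genes that were above all CON libraries in every TM library, HMLS replicate 7 was above all CON libraries in 59.7% and DSS replicate 6 in 68.5%, and the other colitis libraries outside TM in 71.2% to 97.9%.

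Across the 22 libraries the 10 genes with the highest Pearson r to Mchr1 were Nfil3, Per1, Il4ra, Cebpd, Lrrc29, Ptpn1, Ddit4, Med9, Hnrnpul1 and Mrpl27, with r from 0.910 down to 0.880. Likeness was measured on log2(FPKM + 1) among the 13787 genes that reached 1 FPKM in 4 or more libraries. Of these, 119 genes had r of 0.8 or more and 120 had r of -0.8 or less. The median r of all genes was 0.005. Group means of Mchr1 differed, so the r of each gene named by rank is given again after the group means were subtracted, and within CON. The points share libraries and each library's total, and with so many genes ranked, high values of r at the top of the list are a property of the choice.

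Nfil3, a bZIP repressor of clock output and immune genes, had r = 0.910 over all libraries, 0.796 with group means subtracted and 0.567 within the 8 CON libraries. Its mean was 7.60 ± 2.36 FPKM in CON (SD, n = 8) and 28 ± 6.75 in TM (n = 5). Per1, a repressor of the circadian clock, had r = 0.908, 0.883 and 0.732. Its level in TM was 12.6, 29.4, 14.1, 22 and 23.3 FPKM in replicates 3, 5, 6, 7 and 8. The 2 lowest of these, replicates 3 and 6, were also the 2 TM libraries with the least Mchr1. In DSS, Per1 was 14.3, 17.8, 57.8, 9.35 and 24.9 FPKM in replicates 1, 2, 5, 6 and 7, with replicate 5 highest and replicate 6 lowest as for Mchr1. HMLS Per1 levels were 41.5, 12.5, 4.10 and 30.04 FPKM in replicates 3, 6, 7 and 8, which is the same order as for Mchr1. Without HMLS replicate 7 the r of Per1 with group means subtracted was 0.808, and that of Nfil3 was 0.662. Without the 2 libraries farthest from the median of Mchr1 on the log2(FPKM + 1) scale, HMLS replicate 7 and CON replicate 3, r over the other libraries was 0.893 for Per1 and 0.911 for Nfil3.

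**Figure D2:**
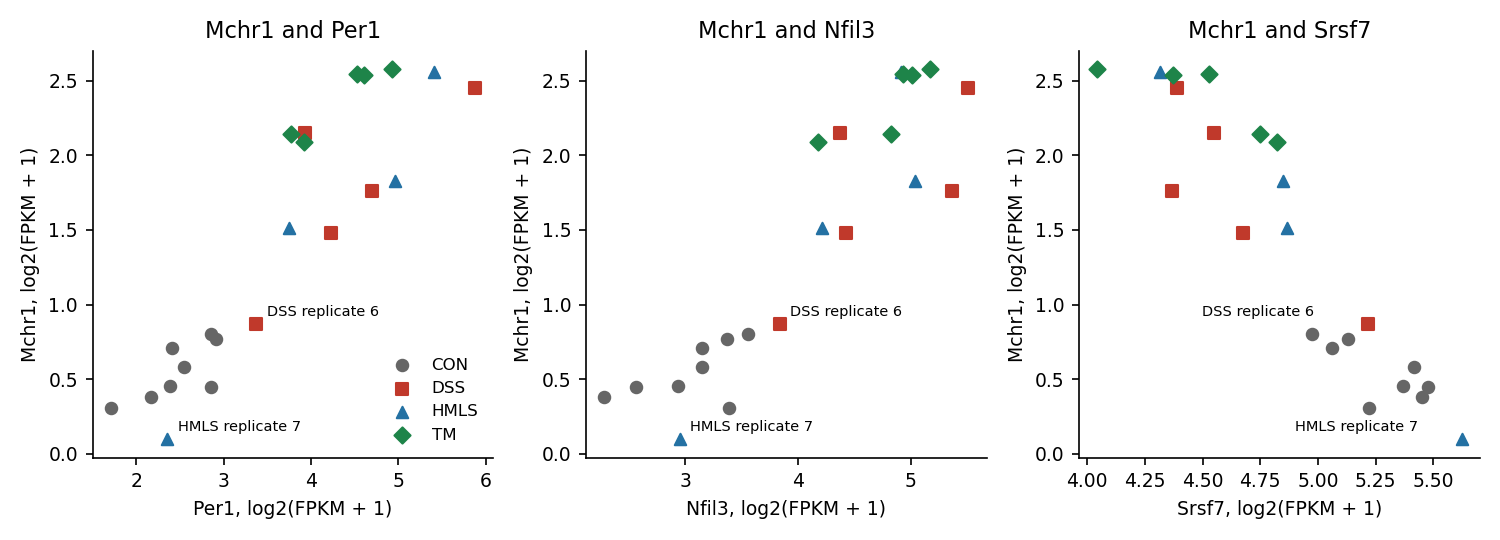
Mchr1 against Per1, Nfil3 and Srsf7 in 22 libraries, both axes log2(FPKM + 1), with markers by group. On the x axis HMLS replicate 7 lies within the CON range for Per1 and Nfil3. It lies beyond that range for Srsf7, with 48.3 FPKM against at most 43.6 in CON. On the y axis (Mchr1) it lies below every CON library.

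The other genes of the top 10 had varied roles. Il4ra, the shared receptor chain for interleukins 4 and 13, had r = 0.894 and 0.756 with group means subtracted, and 0.514 within CON. Cebpd, an acute-phase transcription factor, had r = 0.893 and 0.742, but 0.002 within CON. Ddit4, an inhibitor of mTORC1 that stress and glucocorticoids induce, had r = 0.888 and 0.701, and 0.476 within CON. Its mean was 13.4 FPKM in CON and 108 in TM. Ptpn1, the phosphatase PTP1B that acts on insulin and leptin signalling, had r = 0.889 and 0.829, but 0.195 within CON. Lrrc29, a leucine-rich repeat protein, had r = 0.891 and 0.803, and 0.742 within CON. Med9, a Mediator subunit, Hnrnpul1, an RNA-binding protein, and Mrpl27, a mitochondrial ribosomal protein, had r of 0.780, 0.818 and 0.718 with group means subtracted.

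The lowest r belonged to Zmym1, a zinc finger gene (-0.937), Srsf7 (-0.928), Chordc1, an Hsp90 co-chaperone (-0.906), Rslcan18 and Zfp873, both KRAB zinc finger genes (-0.904 and -0.901), and Mtch2, a mitochondrial outer membrane protein (-0.898). With group means subtracted these 6 values were -0.907, -0.878, -0.859, -0.820, -0.788 and -0.798. Within CON they were -0.593, -0.725, -0.676, -0.732, -0.201 and -0.614. The mean of Zmym1 was 5.77 ± 1.07 FPKM in CON and 2.71 ± 0.511 in TM (SD). That of Srsf7 was 37.7 ± 5.06 and 22.1 ± 4.76. These directions follow from the ranking, which used the same libraries.

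With group means subtracted, the 6 highest values were those of Scnn1b (0.887), Tbx2 (0.884), Per1 (0.883), Selo (0.862), Pcif1 (0.845) and Zfp282 (0.842). Per1 was the only gene in both this list and the top 10 over all libraries. Scnn1b encodes the beta subunit of the epithelial sodium channel, which aldosterone raises in the distal colon. Its group means differed little, at 6.62 ± 1.24 FPKM in CON, 7.37 ± 3.61 in HMLS, 7.72 ± 2.39 in TM and 7.73 ± 3.35 in DSS. Its r over all 22 libraries was lower, at 0.610. Within the 3 colitis groups Scnn1b had r = 0.929 over 14 libraries with group means subtracted, and within CON it had 0.340. HMLS replicate 7 (3.07 FPKM) and DSS replicate 6 (3.20 FPKM) held the lowest Scnn1b of the 22 libraries, and HMLS replicate 3 held the highest at 11.6. Tbx2, a T-box repressor, had 0.674 within CON and 0.942 within the colitis groups. Selo, a mitochondrial pseudokinase, Pcif1, an mRNA cap methyltransferase, and Zfp282, a zinc finger gene, had 0.312, 0.505 and 0.689 within CON.

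**Figure D3:**
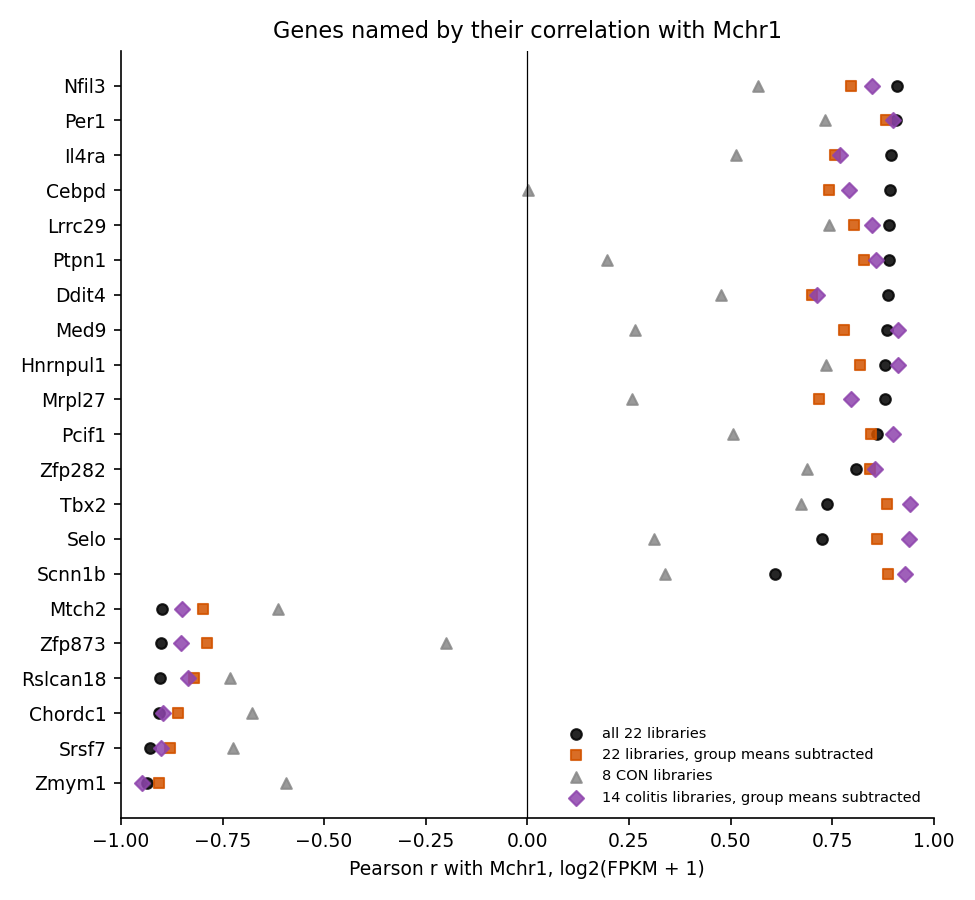
Pearson r with Mchr1 of the 21 named genes over 22 libraries, over 22 libraries with group means subtracted, over the 8 CON libraries and over the 14 colitis libraries with group means subtracted. All 21 keep the sign of their Pearson r in each set, with Cebpd near 0 in CON at 0.002. By rank (Spearman rho, not shown) Cebpd (-0.095), Med9 (-0.024) and Zfp873 (0.095) have the other sign within CON. Every set shares libraries with the ranking that picked the genes.

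Because Per1, Nfil3, Ddit4, Chordc1 and Scnn1b stood among these genes, 4 further lists were written after r had been seen, and they are described without a test. All 17 genes of a list of glucocorticoid-induced genes had r of 0.5 or more, against 17.4% of all genes. Their median r was 0.776, and 0.629 with group means subtracted, against 0.005 and 0.004 for all genes. Leaving out the 4 already named, the other 13 had medians of 0.757 and 0.594, the latter 0.464 without HMLS replicate 7. Among them Sgk1, a kinase that steroid hormones induce, had r = 0.834 and 0.809 with group means subtracted, and its mean was 143 FPKM in CON and 422 in TM. Zbtb16, a zinc finger repressor, had 0.824 and 0.793, and Fkbp5, a co-chaperone of the glucocorticoid receptor, had 0.777 and 0.629. Dusp1, a phosphatase of MAP kinases, had 0.547 but 0.103 with group means subtracted. Within CON, the r of Sgk1 was 0.612 and that of Fkbp5 was 0.005.

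Of the 18 circadian clock genes with values past the filter, 7 had r of 0.5 or more, and the median was 0.456, or 0.328 with group means subtracted. Cry2, a clock repressor, had r = 0.720 and 0.667. Per2, a relative of Per1, had 0.492 and 0.563. Arntl, which encodes BMAL1, had -0.098 and 0.095, and Clock had -0.580 and -0.421. Nr1d1, a nuclear receptor that represses Arntl, had 0.455 and 0.305. The list without Nfil3 and Per1 had medians of 0.440 and 0.254, the latter 0.250 without HMLS replicate 7. The labels give no hour of tissue collection, so clock genes cannot be placed in a cycle here.

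Of the 21 heat shock chaperone genes, 18 had r of -0.5 or less, against 15.5% of all genes, and the median was -0.779, or -0.505 with group means subtracted. Hsph1, an Hsp110 chaperone, had r = -0.890 and -0.751, with a mean of 24.6 FPKM in CON and 5.63 in TM. Hspa1b, an inducible Hsp70, had -0.835 and -0.739. Hspa1a and Hspa1b are near-identical copies, so their separate values are uncertain. Hspb1 (-0.277) and the chaperonin subunit Cct2 (0.038) lay outside that range, and Bag3, an Hsp70 co-chaperone, went the other way at 0.707. The list without Chordc1 had medians of -0.773 and -0.501, the latter -0.479 without HMLS replicate 7.

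Of 10 genes of aldosterone-regulated sodium absorption, 6 had r of 0.5 or more, with a median of 0.617, or 0.497 with group means subtracted. Hsd11b2, which inactivates glucocorticoids in mineralocorticoid target cells, had r = 0.791 and 0.434. The gamma subunit gene of the sodium channel, Scnn1g, had 0.676 and 0.614, and the alpha subunit gene Scnn1a had 0.278 and 0.561. Nr3c2, which encodes the mineralocorticoid receptor, went the other way at -0.406 and -0.706. Sgk1 stands in both this list and the glucocorticoid-induced list. Without Scnn1b the medians were 0.623 and 0.434, the latter 0.335 without HMLS replicate 7.

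Markers of cell types were examined in the same way. The stem and crypt base cell markers had a median r of -0.820 over the 5 past the filter, with all 5 at -0.5 or less, and -0.578 with group means subtracted. Their summed level was 30.1 to 46.1 FPKM in CON, against 7.48 to 20.6 in TM, 5.10 to 23.1 in DSS and 7.67 to 17.04 in HMLS, so no colitis library reached CON. HMLS replicate 7 had 17.04 FPKM, the highest of HMLS. The adipocyte markers had a median of -0.710 over 7 genes, and -0.318 with group means subtracted. Their sum was 93.9 to 1398 FPKM in CON, against 31.5 to 99.4 in TM, 41.8 to 138 in DSS and 51.2 to 486 in HMLS, so each colitis group overlapped CON. HMLS replicate 7 had 250.7 FPKM. The macrophage and monocyte markers had a median of 0.332 over 7 genes, and 0.484 with group means subtracted, or 0.353 when HMLS replicate 7 was also left out. Their sum was 20.8 to 62.8 FPKM in CON, against 55.4 to 85.1 in TM, 24.4 to 60.7 in DSS and 13 to 47 in HMLS, and HMLS replicate 7 had the lowest HMLS sum. C1qb, a complement gene of tissue macrophages, had r = 0.434 and 0.665. Markers of interstitial cells of Cajal, endothelium and smooth muscle had medians of -0.334, 0.111 and -0.322 over all libraries. With group means subtracted these were 0.499, 0.423 and 0.341, and without HMLS replicate 7 as well 0.584, 0.396 and 0.472. The part of these markers in the level of Mchr1 was not tested.

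Of 6 neutrophil markers listed in the table only S100a8 and S100a9 passed the filter, with r = 0.734 and 0.773, and 0.338 and 0.399 with group means subtracted. Mpo, a granule enzyme, was at most 0.168 FPKM. The summed level of these 6 markers was 0.717 to 2.30 FPKM in CON. It was 4.07 to 90.7 in TM, 2.77 to 62.2 in DSS and 2.42 to 20.6 in HMLS, so no colitis library overlapped CON. HMLS replicate 7 had 2.42 FPKM, the lowest colitis library. No mast cell or eosinophil marker passed the filter, and their summed levels were at most 1.32 and 1.14 FPKM in any library. The 10 enteric neuron markers past the filter had r from 0.014 to 0.470 with a median of 0.253, and 0.328 with group means subtracted. The 9 colonocyte markers had a median of -0.045, and -0.371 with group means subtracted. The 3 brain markers past the filter had a median of 0.182.

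**Figure D4:**
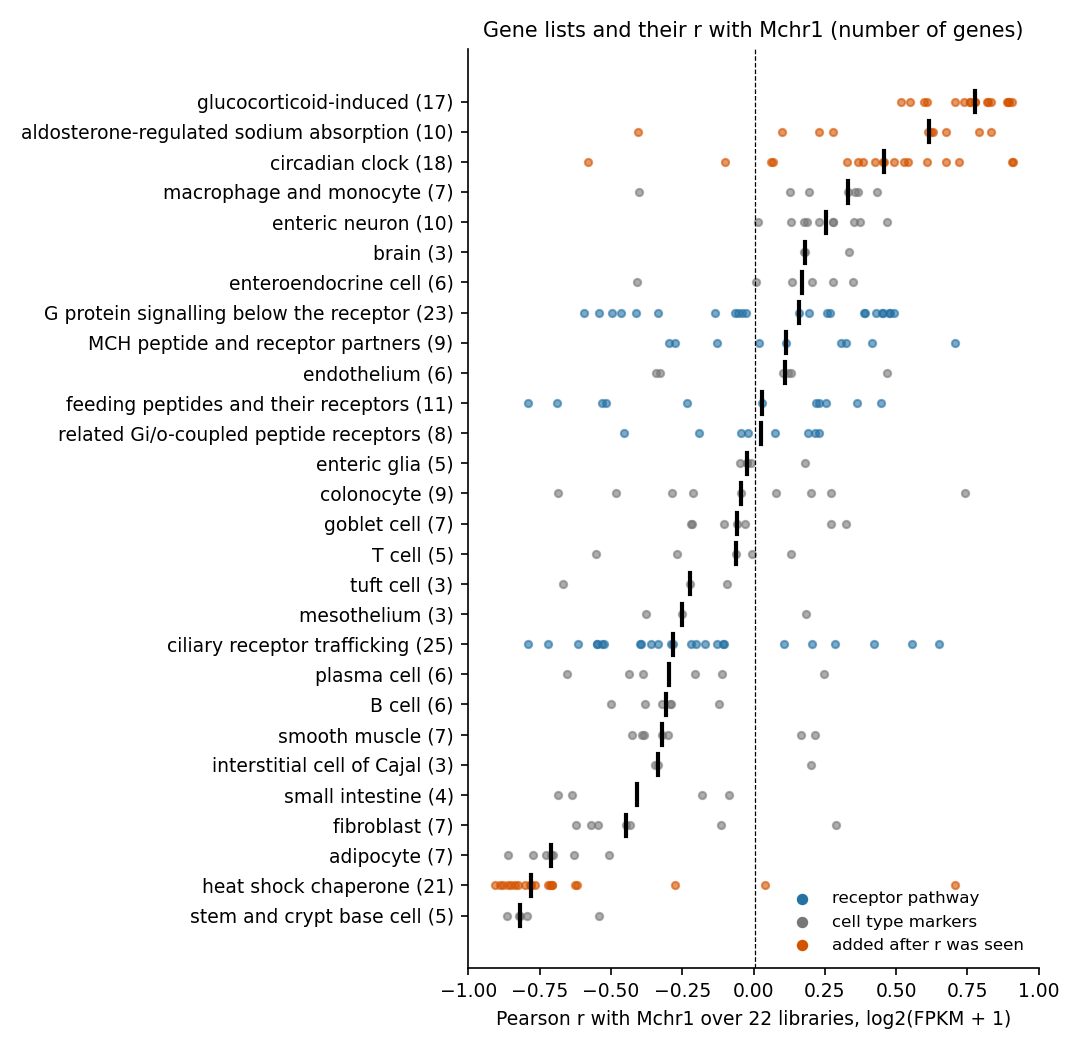
Pearson r with Mchr1 over 22 libraries for each gene (points) of each list with at least 3 genes past the filter, with the list's median as a bar and the median of all genes (0.005) as a dashed line. The glucocorticoid-induced genes lie to the right (median 0.776), and the heat shock chaperones (-0.779) and stem and crypt base cell markers (-0.820) to the left.

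The other members of the MCH system were tested across all genes with limma, with Benjamini-Hochberg adjustment over all genes and a threshold of 0.05. By this test 27.1% of genes changed in DSS vs CON (14% higher and 13.1% lower), 34.1% for HMLS (17.5% and 16.6%) and 26% for TM (14.3% and 11.8%). Between colitis groups limma called 0 of 13341 genes (0%), while unadjusted p was under 0.05 for 740 genes in HMLS vs DSS, for 367 in TM vs DSS and for 1260 in HMLS vs TM. No list member therefore passed among the colitis groups.

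The ligand gene Pmch was listed at 0 in 16 of 22 libraries and was at most 0.302 FPKM. The enzymes that cut and modify such peptides were above 0 in every library. The prohormone convertase Pcsk1 had a mean of 24.7 FPKM in CON, against 17.7 in TM, 16.9 in DSS and 15.4 in HMLS. It fell by 0.68 ± 0.233 (SE) on the log2 scale in HMLS vs CON (limma adjusted p = 0.0370), a call lost in 8 of 12 leave-one-out fits (up to 0.131, without HMLS replicate 6). In DSS vs CON its change was -0.59 (limma adjusted p = 0.0910), and without DSS replicate 5 it passed (0.0358). Pcsk2, a second convertase, had group means from 1.52 to 2.14 FPKM, and Cpe, the carboxypeptidase that trims the cut peptides, had 58.9 to 69.3. Pam, which amidates many peptides, had 59.0 to 70.7 FPKM. None of these 3 passed the test.

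Among partners of the receptor, Arrb2, a beta-arrestin that takes activated receptors from the surface, fell by 0.46 ± 0.115 in HMLS vs CON (limma adjusted p = 0.00735). The difference of Arrb2 was -0.25 in DSS vs CON (limma adjusted p = 0.0818, and 0.0407 without DSS replicate 1) and -0.08 in TM vs CON (0.557). The other beta-arrestin, Arrb1, and the receptor kinase Adrbk1 had group means from 30.7 to 33.3 and from 28.3 to 34.4 FPKM and passed in no comparison. Zmynd19, a protein that binds the tail of the receptor, had 5.75 to 7.09 FPKM. Ncdn, neurochondrin, which also binds the receptor, had 12 to 14.6 FPKM and, among the 9 partners past the filter, the highest r to Mchr1 (0.705, and 0.659 with group means subtracted). Rgs8, a regulator of G protein signalling, was at most 0.306 FPKM. In all, 0 of 9 partners changed in DSS against CON, 2 fell in HMLS and 0 changed in TM. Of all genes 27.1%, 34.1% and 26% changed. The partners had median log2 differences of -0.15, -0.18 and -0.04, against -0.01, 0.00 and 0.01 for all genes.

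In each comparison with CON 23 genes of G protein signalling were tested. In DSS 5 rose and 5 fell, in HMLS 6 rose and 5 fell, and in TM 4 rose and 3 fell. Of all genes tested, 14% rose and 13.1% fell in DSS, 17.5% and 16.6% in HMLS, and 14.3% and 11.8% in TM. Itpr1, the inositol trisphosphate receptor that releases calcium downstream of Gq, fell by 0.77 ± 0.137 in DSS, 0.61 ± 0.132 in HMLS and 0.64 ± 0.124 in TM (limma adjusted p = 0.00187, 0.00322 and 0.00256). Gnai1, an inhibitory G protein subunit, fell by 0.90 in DSS, 0.76 in HMLS and 0.74 in TM (limma adjusted p = 0.00245, 0.00958 and 0.00582). Mapk3, which encodes the kinase ERK1, rose by 0.78, 0.64 and 0.59 (limma adjusted p = 0.00484, 0.0125 and 0.00902). Itpr2, a relative of Itpr1, fell by 0.39, 0.39 and 0.35 (limma adjusted p = 0.00697, 0.00994 and 0.0385), and the TM call was lost in 8 of 13 leave-one-out fits (up to 0.105). Itpr3, also of that family, rose by 0.50, 0.36 and 0.38 (limma adjusted p = 0.00731, 0.0275 and 0.0145), and the HMLS call was lost without HMLS replicate 6 (0.0853). The adenylyl cyclase Adcy7 fell by 0.71 in DSS and 0.91 in HMLS (limma adjusted p = 0.0126 and 0.00345), and its difference in TM was -0.45 (0.0790, and 0.00127 without CON replicate 8). Adcy6, another cyclase, rose by 0.43 in HMLS (limma adjusted p = 0.00897), with differences of 0.35 in DSS (0.0556, and as low as 0.0302 in leave-one-out fits, passing without CON replicate 8 or DSS replicate 1 or 7) and 0.21 in TM (0.130). With the percent mapped as a covariate, which separates DSS from CON, none of the 19 calls in the 5 lists remained in DSS vs CON. There were 12 calls for HMLS with the covariate and 20 without, and 16 for TM either way. The number of these G protein genes that rose in DSS was 3 without CON replicate 1, 2, 4, 5 or 6 or DSS replicate 2 or 7, and the number that rose in TM was 2 without TM replicate 7.

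Of 25 genes of ciliary receptor trafficking, 5 fell and 0 rose in DSS against CON. In HMLS 6 fell and 0 rose, and in TM 3 fell and 2 rose. The shares of all genes that fell were 13.1%, 16.6% and 11.8%, and of those that rose 14%, 17.5% and 14.3%. The median log2 differences of the 25 were -0.26, -0.21 and -0.14, against -0.01, 0.00 and 0.01 for all genes. Ttc21b and Ift140, subunits of the complex that carries cargo back along the cilium, fell in all 3 comparisons, which share CON. Ttc21b fell by 0.65, 0.73 and 0.54 in DSS, HMLS and TM (limma adjusted p = 0.00285, 0.00301 and 0.00438). Ift140 fell by 0.56, 0.75 and 0.50 (limma adjusted p = 0.0158, 0.00111 and 0.00506). Over the 22 libraries Ttc21b had r = -0.790 with Mchr1 and Ift140 had -0.720, and with group means subtracted -0.757 and -0.628. Ift80 fell by 0.39, 0.55 and 0.40 (limma adjusted p = 0.0378, 0.00484 and 0.0136), and the DSS call was lost in 8 of 13 leave-one-out fits (up to 0.0873). Ift20 fell by 0.55 in HMLS (limma adjusted p = 0.00268), with differences of -0.31 in DSS (0.0656, passing without CON replicate 2 or DSS replicate 1) and -0.12 in TM (0.486). Ift43 rose by 0.51 in TM (limma adjusted p = 0.00348), with 0.34 in DSS (0.0532, passing without CON replicate 7 or DSS replicate 5) and 0.25 in HMLS (0.0914). Arl6 and Bbs9, which bring receptors to the cilium, fell by 0.41 and 0.32 in DSS (limma adjusted p = 0.0245 and 0.0373), calls lost for Arl6 without DSS replicate 5 or 6 (0.0517 and 0.0561) and for Bbs9 in 7 of 13 leave-one-out fits (up to 0.0931). Arl6 fell by 0.41 in HMLS as well (limma adjusted p = 0.0200, and 0.0721 without HMLS replicate 8), and its difference in TM was -0.21 (0.285). That of Bbs9 was -0.22 in HMLS and -0.20 in TM (limma adjusted p = 0.151 and 0.174). The number that fell in DSS vs CON was 3 without CON replicate 4 or 6 or DSS replicate 2, 5 or 6, and 8 without DSS replicate 1. The number that rose was 2 without DSS replicate 5 and 1 without CON replicate 7. In TM the number that rose was 1 in 12 of 13 leave-one-out fits, and in HMLS it was 1 without HMLS replicate 6.

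**Figure D5:**
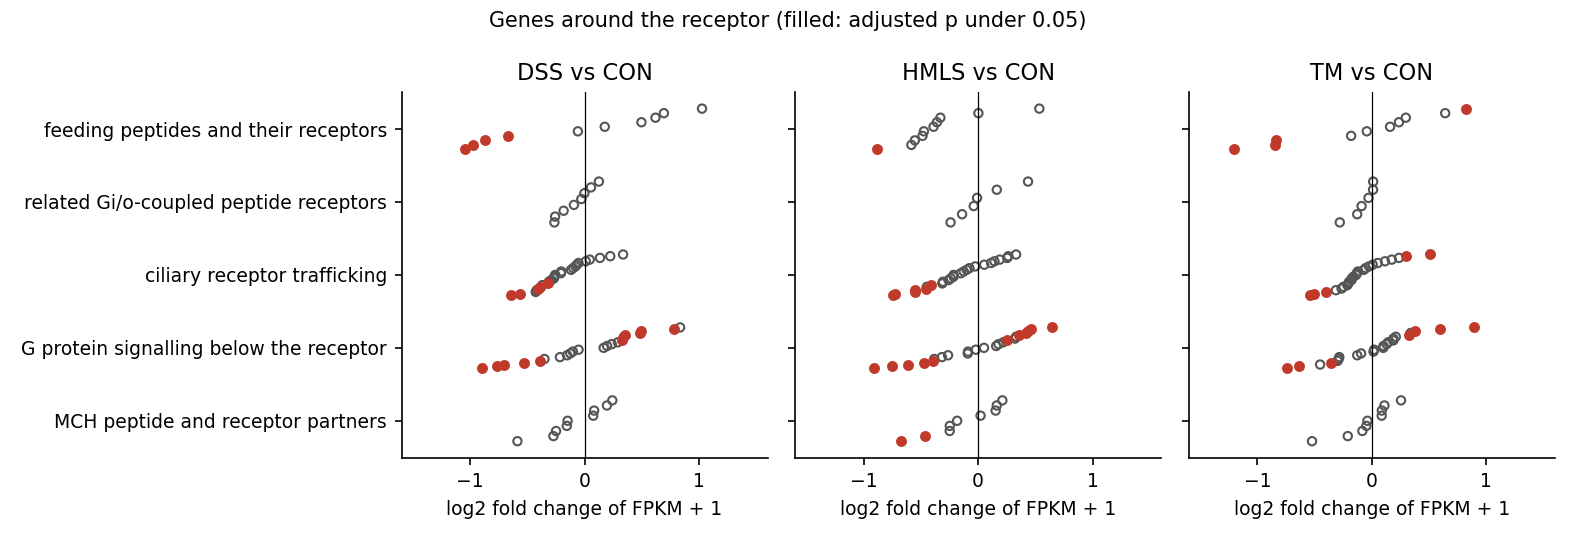
Difference of mean log2(FPKM + 1) from CON in DSS, HMLS and TM (x axis) for the tested genes of 5 lists around the receptor. Filled points passed limma at an adjusted p under 0.05, and none of the related receptors is filled.

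The related Gi/o-coupled peptide receptors, such as those for somatostatin, galanin and opioids, were low in control colon too, with means from 0.0193 to 1.77 FPKM. Of the 14 listed, 8 passed the filter in DSS vs CON and 6 in each of HMLS and TM vs CON. None passed the test, against 27.1%, 34.1% and 26% of all genes. With no filter all 14 were tested, and Oprm1, the mu opioid receptor, passed in DSS and HMLS, by 0.32 and 0.28 (limma adjusted p = 0.0397 and 0.0312), with means of 0.251 FPKM in CON, 0.569 in DSS and 0.512 in HMLS. Galr2, a galanin receptor, had a difference of 0.44 in HMLS vs CON (limma adjusted p = 0.124, and 0.0478 without CON replicate 5). Over all 22 libraries none of the 14 exceeded 2.83 FPKM. Mchr1 reached 4.96, but it was chosen by its levels in these libraries, so nothing is read from this contrast.

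Among feeding peptides and their receptors, 4 of 10 tested fell in DSS against CON. In HMLS 1 fell, and in TM 3 fell and 1 rose. Over all genes 13.1% fell in DSS, 16.6% in HMLS and 11.8% in TM, and 14.3% rose in TM. Nmu, neuromedin U, fell by 1.05 in DSS and 1.20 in TM (limma adjusted p = 0.00147 and 0.00143), and its difference in HMLS was -0.47 (0.0959, and 0.0215 without HMLS replicate 7). Npy2r, a receptor for peptide YY, fell by 0.87 in DSS and 0.84 in TM (limma adjusted p = 0.00551 and 0.00274), and its difference in HMLS was -0.55 (0.0704, passing without CON replicate 1 or HMLS replicate 7). Cckar, a cholecystokinin receptor, fell by 0.97 in DSS, 0.89 in HMLS and 0.84 in TM (limma adjusted p = 0.00935, 0.0301 and 0.0132), and the HMLS call was lost without CON replicate 5 (0.0516) or HMLS replicate 6 (0.0938) or 8 (0.123). Lepr, the leptin receptor, fell by 0.67 in DSS (limma adjusted p = 0.0476), a call lost in 9 of 13 leave-one-out fits (up to 0.121), with differences of -0.39 in HMLS (0.188, and 0.0452 without CON replicate 8) and -0.04 in TM (0.885). Nts, neurotensin, rose by 0.82 in TM (limma adjusted p = 0.0190, and 0.0587 without TM replicate 7). Its differences were 1.03 in DSS and 0.53 in HMLS (limma adjusted p = 0.0530 and 0.145), of which the first passed without CON replicate 3 or DSS replicate 6 or 7 and the other without HMLS replicate 6. In HMLS vs CON the number that fell was 4 without CON replicate 8 or HMLS replicate 7, 2 without CON replicate 1, and 0 without CON replicate 5 or HMLS replicate 6 or 8, while 1 rose without HMLS replicate 6. In DSS vs CON 1 rose without CON replicate 3 or DSS replicate 2 or 7, and 2 rose without DSS replicate 6. In TM vs CON 2 rose without TM replicate 6.

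The genes beside Mchr1 on chromosome 15 did not form 1 pattern with it. Sgsm3, 223209 bases before it, had r = 0.763 and 0.725 with group means subtracted, with means from 38.9 FPKM in CON to 49.4 in TM. Mkl1, the nearest coding gene on that side at 44742 bases, had 0.370 and -0.093, and Adsl had -0.672 and -0.131. On the other side Slc25a17 had -0.040 and -0.173, St13 -0.689 and -0.227, and Xpnpep3 -0.716 and -0.717. The noncoding neighbours 4930483J18Rik and 8430426J06Rik were at most 0.234 and 0.654 FPKM.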

How the data were processed

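Colon RNA libraries of 4 groups were read from the authors' table, and groups came from the labels. Per the labels' protocols, colons were flash frozen, RNA was taken with Trizol and sequencing libraries came from a TruSeq stranded kit for total RNA. Tools named in the submitters' processing notes are bcl2fastq 2.20, Bowtie, TopHat2 2.0.13 and Cufflinks 2.2.0, with mm10, the UCSC name of GRCm38. The authors deposited 1 value per gene and library, read as FPKM because Cufflinks is named, while the table names no unit. The authors also deposited counts of reads and mapped reads and the percent mapped. Reads behind each gene's value are unknown, so precision rests on the spread between libraries.

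Mchr1 and all gene lists were chosen with earlier results of these data known. Values were taken as log2(FPKM + 1). Genes that reached 1 FPKM in 4 or more libraries of a fit were tested with limma 3.58.1 in R 4.3.3 (trend, robust), with a p-value adjusted after Benjamini and Hochberg. Comparisons with CON used their own groups, and the other 3 shared a fit of the colitis groups. Mchr1 was below the filter in HMLS vs CON, where 3 libraries reached 1 FPKM. The steps were tested on simulated data.

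Named genes were Mchr1, all listed partners, up to 4 members of each other pathway list with the smallest p among those called (otherwise the 2 smallest), the 10 highest and 6 lowest r, the 6 highest r with group means subtracted (leaving out predicted genes, small RNAs, pseudogenes and receptor segments), and 4 neighbours on each side. A gene that this rule names is not reported here. Values of named genes in comparisons where the rule did not name them, and Oprm1, were added after they were seen. Genes of the marker lists and of the 4 added lists, and those shown for HMLS replicate 7 and DSS replicate 6, were picked after their values were seen. The labels name no pairing. Libraries with the same replicate number all correlated above 0.1 in TM vs DSS only (3 of 3, from 0.137 to 0.432), where 0 genes were called with or without the block. Gene positions came from GENCODE on GRCm38, and promoter windows from RefSeq on GRCm38.p6. Protein sequences were not used here. Alternatives were another pseudocount, no filter, median-of-ratios scaling, all groups in 1 fit, limma without trend, the replicate block, the percent mapped as covariate, and each library left out. Python 3.11.15 with pandas 2.3.3 and numpy 2.4.6 was used.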

Additional observations from a re-analysis of the deposited data

Results flagged for a closer look

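Chordc1, the Hsp90 co-chaperone whose r with Mchr1 was among the lowest, had 1 CON library flagged as an outlier. CON replicate 1 held 43.6 FPKM, against 20.7 to 31.4 in the other 7. It was the only flag among 32 combinations of 8 measures (genes and the percent mapped) and 4 groups. Chance flags about 1 in 20 of such combinations, so 1 flag among 32 is no more than chance gives. Over all single omissions, that of this library among them, the r of Chordc1 with Mchr1 ran from -0.916 to -0.897. The value without this library alone is not given here.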

How the results depend on the processing

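For Mchr1 the settings were another pseudocount, median-of-ratios scaling, the replicate block and each library left out. In these settings the direction of its difference was kept in all comparisons except HMLS vs DSS, which was 0.22 without HMLS replicate 7. Its difference with the percent mapped as covariate is not given here. With a pseudocount of 0.1 the difference was 2.08 in DSS vs CON and 2.95 in TM vs CON, since a smaller pseudocount compresses low values less. With 1 library left out in turn, the Mchr1 mean was 0.444 to 0.517 FPKM in CON, 2.11 to 3.02 in DSS, 1.49 to 3.09 in HMLS and 4.08 to 4.51 in TM. The differences were then 1.01 to 1.40 for DSS, 0.59 to 1.41 for HMLS and 1.77 to 1.89 for TM against CON, -0.60 to 0.22 in HMLS vs DSS, 0.42 to 0.81 in TM vs DSS and -1.23 to -0.41 in HMLS vs TM. Genes with r of 0.8 or more numbered 28 with group means subtracted, 20 when HMLS replicate 7 was also left out (chosen after seeing the data), and 93 to 195 with 1 library left out, when 195 was without DSS replicate 1, 182 without DSS replicate 7, 183 without HMLS replicate 7 and 187 without TM replicate 3. Genes with r of -0.8 or less numbered 42, 33 and 102 to 180, and 76 with a pseudocount of 0.1. With the replicate block the genes called were 2176 for DSS, 753 for HMLS and 2000 for TM, each against CON, though the numbers were not shown to pair these groups (2 of 5, 0 of 4 and 3 of 5 pairs correlated above 0.1). The block ended 16 calls of named pathway genes and changed no other of their 117 results. With the percent mapped as covariate 26 were called in DSS vs CON. With 1 library left out, 2493 to 4166, 3106 to 4808 and 2501 to 4170 genes were called in those 3 comparisons, 0 to 1 in HMLS vs DSS and 0 to 3 in HMLS vs TM, with the 1 and the 3 without HMLS replicate 3. The causes were not tested. Per-gene depth is unknown, so no counting error can be given for Mchr1 values under 1 FPKM.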
